A study of Mus musculus with 22 samples.

Results

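CXC chemokine genes were followed through RNA-seq libraries of mouse retinal microglia that had, or had not, taken up dead neurons. The 8 genes named for this purpose, Cxcl1, Cxcl2, Cxcl3, Pf4, Cxcl9, Cxcl10, Cxcl14 and Cxcl16, were found by symbol among the 35596 genes to which the deposited transcript estimates could be assigned. Reads were summed over the transcripts of each gene. Of the 8 members, 7 passed the filter on low counts that left 12415 genes for testing, and Cxcl9 did not.

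Microglia, the resident macrophages of neural tissue, came from retinas of 12-week-old mice, either wild type (C57BL/6) or lacking Apoe (Apoe-/-), the gene of the lipid carrier apolipoprotein E. Mice of both genotypes had been injected intravitreally with apoptotic neurons, and the file headers name 24 hours and SMART-Seq2, which amplifies full-length cDNA from few cells. The sort took CD11b+ Fcrls+ cells without Ly6c, and Alexa488 carried by the neurons split them into phagocytic and non-phagocytic cells. A library pooled 5 to 6 retinas of the same sex and genotype, with 100 to 500 phagocytic cells collected. Wild type gave 5 libraries of each sort, and Apoe-/- gave 6 of each. Non-phagocytic cells came from injected eyes too, so no group lacked the injection. Since the animals were pooled, p-values measure the spread between pools.

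CXC chemokines are small secreted proteins that direct the movement of leukocytes through receptors coupled to G proteins. Cxcl1, Cxcl2 and Cxcl3 act on Cxcr2 and draw neutrophils, and their genes are classical targets of NF-kB in macrophages. Cxcl9 and Cxcl10, induced by interferons, act on Cxcr3 and draw T cells. Pf4, or platelet factor 4 (Cxcl4), is stored in platelet granules and is also made by macrophages, among them those at the borders of the brain. Cxcl16 is made as a membrane protein that binds Cxcr6 and takes up oxidised lipoprotein, and the proteases Adam10 and Adam17 release it. Cxcl14 is a chemokine of epithelia whose receptor is not settled.

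In this build (GRCm38, mm10), 6 of the 8 genes lie on chromosome 5. Pf4 (90772435 to 90773383) and Cxcl3 (90786103 to 90789600) are neighbours with a gap of 12.7 kb, and Cxcl1 (90891241 to 90893115) and Cxcl2 (90903871 to 90905938) follow on the same, plus strand. Cxcl3 and Cxcl1 are 102 kb apart, and Cxcl1 and Cxcl2 10.8 kb. Cxcl9 (92321347 to 92328079) and Cxcl10 (92346638 to 92348889) form a second pair on the minus strand, 18.6 kb apart, and all of Cxcl10 lies within Art3, which is read from the opposite strand. Cxcl14 is on chromosome 13 (56288643 to 56296551) and Cxcl16 on chromosome 11 (70453983 to 70459984), both on the minus strand. The Cxcl16 gene overlaps Zmynd15, on the opposite strand, by 552 bases. The strand setting of the libraries is not given in the sources used here, so reads of Cxcl10 or Cxcl16 and of these neighbours could not be told apart over the shared bases.

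Promoter sequence is shown for the clustered genes whose libraries separated most by sort (Cxcl3 and Pf4) and for the Cxcl1 and Cxcl2 genes beside them. It is also shown for Cxcl10, an interferon-inducible member. The 80 bases run 5′ to 3′ in the sense of the gene, from position -110 to -31 counted from the start site (RefSeq, GRCm38.p6), and capitals mark overlapping matches to the NF-kB consensus.
Cxcl3 (chr5:90785991-90786070, plus strand): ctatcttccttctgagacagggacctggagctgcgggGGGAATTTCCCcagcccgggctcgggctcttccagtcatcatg
Cxcl2 (chr5:90903789-90903868, plus strand): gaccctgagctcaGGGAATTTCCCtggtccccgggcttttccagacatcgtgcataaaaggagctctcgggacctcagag
Cxcl1 (chr5:90891135-90891214, plus strand): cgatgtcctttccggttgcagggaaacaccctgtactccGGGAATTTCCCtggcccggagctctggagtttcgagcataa
Cxcl10 (chr5:92348920-92348999, minus strand): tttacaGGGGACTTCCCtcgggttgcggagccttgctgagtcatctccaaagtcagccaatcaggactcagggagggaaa
Pf4 (chr5:90772325-90772404, plus strand): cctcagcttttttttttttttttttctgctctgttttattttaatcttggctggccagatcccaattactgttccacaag

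Cxcl1, Cxcl2 and Cxcl3 carried the same palindromic match in capitals, from -71 to -61, -97 to -87 and -73 to -63. Cxcl10 had matches from -104 to -94 and from -159 to -150, an AP-1 motif (TGANTCA) from -74 to -68 and an interferon-stimulated response motif (GAAA, any 2 bases, GAAA) from -213 to -204. In the 250 bases before its start, Pf4 had none of these 3 motifs and 1 match to the C/EBP motif TTGCNNAA, from -212 to -205. Searched on both strands over 250 bases, the NF-kB consensus was found in 7.25% of 32817 promoters, the interferon motif in 2.97%, TGANTCA in 6.75% and TTGCNNAA in 9.57%. A match describes the letters and shows no binding. RefSeq promoters were matched for 7 of the 8 members. Of those not printed, Cxcl9, also induced by interferons, had no match to any of the motifs searched. Cxcl14 had the interferon motif, from -172 to -163, and no other.

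The 22 libraries held 1131239 to 3643674 assigned reads and 16574 to 21790 detected genes. Apoe reached 869 to 5145 CPM (reads scaled to a common library size) in wild-type and 7.02 to 34.9 CPM in Apoe-/- libraries, so every library matched its genotype. Microglial markers (9 genes, among them Fcrls, P2ry12 and Tmem119) summed to 3619 to 16070 CPM per library, and none of the 9 passed the test in any comparison. The lowest sums, 3619 and 3707 CPM, were those of the wild-type libraries numbered 4. Predicted genes of satellite-like repeats, 12 in number, took 9.14% to 51.7% of reads, the most in Apoe-/- non-phagocytic library 2. The sum of 10 neutrophil markers was 753 to 1037 CPM in 3 libraries, both wild-type libraries numbered 4 and Apoe-/- non-phagocytic library 2, and 197 to 396 CPM in the other 19. Csf3r held much of these sums, at 202 to 322 CPM in the 3 libraries and 135 to 309 CPM in the other 19. S100a8, a calcium-binding protein abundant in neutrophils, was at 167 to 220 CPM in those 3 libraries and at most 80.4 CPM elsewhere. S100a9, its partner, was at 184 to 250 CPM in the 3 and at most 67.5 CPM elsewhere. Of the defining neutrophil genes, Ly6g was at 0 in 18 of 22 libraries and Camp at 0 in 14, with at most 0.901 and 1.80 CPM. Retnlg and Mmp8 were highest outside the 3 libraries, at 27.0 and 48.5 CPM, against at most 16.8 and 37.6 CPM within them. Monocyte markers were also highest in the wild-type libraries numbered 4, at 1496 and 1607 CPM, although Ly6c-positive cells had been gated out. No tested marker of monocytes, neutrophils, dendritic cells, lymphocytes, rod photoreceptors, Mueller glia or endothelium passed in any of the 5 comparisons. Dendritic cell markers still leaned to non-phagocytic cells: 0 of 6 tested had positive estimates with uptake in either genotype. Their median log2 fold change was -1.67 in wild type and -0.83 in Apoe-/-. In wild type 5 of 6 stood at an unadjusted p under 0.05 (edgeR), and in Apoe-/- 0 of 6. Their sums were 24.4 to 69.7 CPM in wild-type phagocytic and 39.15 to 365 CPM in non-phagocytic libraries, with overlap. The cell mix of the sorts was not tested. In bulk samples such as these, more cells of a type and more RNA per cell cannot be told apart.

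Compared in TPM, which divides reads by transcript length as well as by depth, Cxcl16 was the most abundant member in each group by its median, with 293 TPM in phagocytic and 180 TPM in non-phagocytic cells of wild type, and 276 and 144 TPM in those of Apoe-/-. In wild-type phagocytic cells Cxcl2 (median 271 TPM), Pf4 (182), Cxcl10 (99.4), Cxcl3 (64.6), Cxcl14 (8.72), Cxcl1 (1.44) and Cxcl9 (0) came next. The ranges of Cxcl16, Cxcl2 and Pf4 overlapped, whereas every Pf4 value there exceeded every Cxcl10 value, and every Cxcl3 value every Cxcl14 value. In wild-type non-phagocytic cells Cxcl3 stood in 7th place, at a median of 0.156 TPM, behind Cxcl10 (62.2), Cxcl2 (59.2), Pf4 (25.1), Cxcl14 (9.31) and Cxcl1 (0.628). Only Cxcl16 over Cxcl10, and Cxcl14 over Cxcl1, were neighbours without overlap in that group. In both Apoe-/- groups the first places were held by Cxcl16, Cxcl10, Cxcl2, Pf4 and Cxcl14, in that order, with overlap between all neighbours except Pf4 and Cxcl14 in the phagocytic cells. These TPM sum all transcripts of a gene. Over all libraries 39.7% of Cxcl2 reads and 58.6% of Cxcl16 reads fell on coding transcripts, so the order need not hold for coding messages.

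To ask which chemokines went with the uptake of neurons, phagocytic cells were compared with non-phagocytic cells in wild type. Cxcl3 and Pf4 rose, and the other 5 tested members had positive log2 fold changes that did not pass. All 7 estimates together had a median log2 fold change of 2.09 against -0.01 over all genes. Cxcl1 and Cxcl3 averaged 0.691 and 0.832 CPM in wild-type non-phagocytic libraries and passed the low-count filter through other groups, which favours a positive sign. Cxcl9, below the filter, was at -0.49 (difference in mean log2(CPM + 1)). The members were also chosen with earlier results of these data known, so the shares below describe them and are no test of the family. The 2 of 7 that passed compare with 0.193% of all tested genes that passed in this direction, and the 2 of 7 whose groups did not overlap with 1.51% (edgeR's quasi-likelihood test, Benjamini-Hochberg adjusted p under 0.05).

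**Figure D1:**
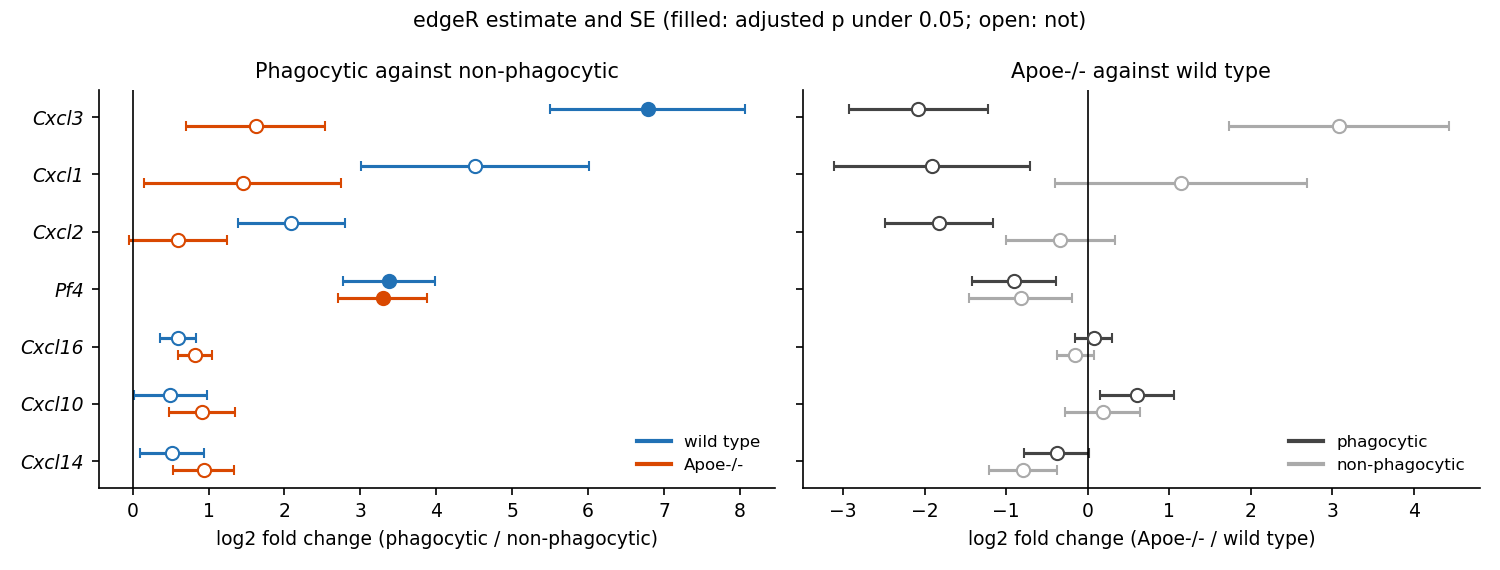
Log2 fold changes with SE from edgeR for the 7 tested members. Left, phagocytic against non-phagocytic cells in wild type (blue) and Apoe-/- (orange); right, Apoe-/- against wild type in phagocytic (dark) and non-phagocytic cells (light). Filled points passed an adjusted p of 0.05: Cxcl3 (6.78) and Pf4 (3.37) in wild type, and Pf4 (3.29) in Apoe-/-.

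Cxcl3 was at 61.7, 42.5, 54.9, 92.8 and 236 CPM in wild-type phagocytic libraries 1 to 5. In wild-type non-phagocytic libraries 1 to 5 it was at 0.705, 0.374, 0.373, 0.542 and 2.17 CPM, that is about 1 to 5 reads a library. The groups did not overlap, and the lowest phagocytic library stood far above the highest non-phagocytic library. Cxcl3 rose by 6.78 ± 1.28 on the log2 scale (adjusted p = 0.0141, edgeR, Benjamini-Hochberg), an estimate that depends on the prior count since 1 group held so few reads. Leaving out wild-type non-phagocytic library 2 or 3 gave an adjusted p of 0.0600 or 0.0565 with log2 fold changes of 6.57 and 6.57. Of the Cxcl3 reads, 93.0% fell on the coding transcript in wild-type phagocytic cells against 17.5% in wild-type non-phagocytic cells, where the few reads lay mostly on a non-coding form. Counted on coding transcripts alone, Cxcl3 was at 41.1 to 223 CPM in the 5 phagocytic libraries and at 0 in 4 of 5 non-phagocytic libraries.

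Cxcl2, the most abundant of the Cxcr2 ligands, was at 201, 184, 133, 575 and 452 CPM in wild-type phagocytic libraries 1 to 5. In wild-type non-phagocytic libraries it was at 61.3, 34.4, 19.0, 214 and 36.0 CPM. Of the non-phagocytic libraries 1, number 4, lay within the phagocytic range, and the other 4 lay below it. The log2 fold change was 2.09 ± 0.71 (adjusted p = 0.363, edgeR). Without that library it was 3.06 (adjusted p = 0.0495), and that library was 1 of the 3 with the highest neutrophil markers. Each phagocytic library lay above the non-phagocytic library of its own number, and with the number as a block Cxcl2 passed in wild type. That fit is an alternative, given at the end, since equal numbers are not said to share animals. Only 39.7% of Cxcl2 reads fell on coding transcripts and 43.8% on 1 form with a retained intron, so the level of the coding message was lower than the gene total.

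Cxcl1 was near the limit of detection apart from a single library. It was at 0.781, 0, 2.57, 5.99 and 72.4 CPM in wild-type phagocytic libraries and at 1.41, 0.374, 0.373, 0 and 1.3 CPM in non-phagocytic libraries. Library 5 of the phagocytic group, which also had the highest Cxcl3, stood apart. Libraries 1 and 2 lay within the non-phagocytic range, and libraries 3 and 4 (2.57 and 5.99 CPM) above it. The log2 fold change of 4.51 ± 1.502 (adjusted p = 0.356, edgeR) was 1.71 without phagocytic library 5. A count of 0, found in 6 of the 22 libraries, allows up to 0.819 to 2.48 CPM (3 reads; counting error only).

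Pf4 was at 74.2, 158, 92.6, 84.7 and 64.8 CPM in wild-type phagocytic libraries 1 to 5 and at 14.1, 19.4, 8.58, 1.08 and 2.17 CPM in non-phagocytic libraries. All 5 phagocytic libraries lay above all 5 non-phagocytic libraries. Its mean rose from 9.07 ± 7.82 to 94.8 ± 36.7 CPM (SD, n = 5 per group), 10.4-fold, with a log2 fold change of 3.37 ± 0.61 (adjusted p = 0.0113, edgeR). The adjusted p stayed between 0.0122 and 0.0480 with each library left out, and was 0.0622 (log2 fold change 3.40) when reads of coding transcripts alone were counted.

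Markers of 2 other Pf4-expressing cell types were set beside it. The 12 platelet and megakaryocyte genes summed to 10.7 to 41.2 CPM in wild-type phagocytic and 18.4 to 68.2 CPM in wild-type non-phagocytic libraries, and in Apoe-/- to 18.0 to 49.6 and 37.9 to 60.4 CPM. Itgb3, an integrin gene, held much of these sums, and without it phagocytic cells had a median of 19.0 CPM against 16.8 CPM for non-phagocytic cells in wild type, and 13.6 against 22.4 CPM in Apoe-/-. Ppbp, the platelet basic protein gene that accompanies Pf4 in platelets, was at 3.90, 6.11, 3.43, 0.428 and 0 CPM in wild-type phagocytic libraries and at 0 in all but 1 (2.62 CPM) of the non-phagocytic libraries. In Apoe-/- it was at 2.70 CPM or less in phagocytic libraries and at 0 in 5 of 6 non-phagocytic libraries. Gp1bb and Gp5 had a median of 0 over the 22 libraries. The part of platelet RNA in the Pf4 result was not tested. Genes of border macrophages (11 genes without Pf4, among them Mrc1, F13a1, Stab1 and Ccl24) summed to 499 to 932 CPM in wild-type phagocytic and 268 to 380 CPM in non-phagocytic libraries. In Apoe-/- cells these sums were 442 to 994 and 222 to 363 CPM, again without overlap. Stab1 held much of these sums, at 264 to 507 CPM in wild-type phagocytic and 192 to 297 CPM in wild-type non-phagocytic libraries. In Apoe-/- it was at 274 to 889 and 170 to 311 CPM, so Stab1 alone overlapped between the sorts in both genotypes. Of the 9 border genes tested, 2 rose in wild type, Ccl24 (log2 fold change 3.57 ± 0.65) and F13a1 (2.47 ± 0.51), and 3 in Apoe-/-, these same genes and Stab1 (1.18 ± 0.24). Beside them, 0.193% and 0.403% of all tested genes passed upward. Of the 9 border genes, 8 had positive estimates in each genotype, beside 49.2% and 47.7% of all genes. Clec10a was at -2.15 ± 0.87 in wild type (adjusted p = 0.526, edgeR). At an unadjusted p under 0.05 in either direction stood 9 of 9 in wild type, Clec10a among them, and 8 of 9 in Apoe-/-. This compares with 961 and 1233 of all 12415 tested genes. Folr2, a folate receptor gene, averaged 10.7 CPM with uptake against 0.879 CPM without it in wild type, and the groups did not overlap (3.50 ± 0.86, adjusted p = 0.0858, edgeR), and 6.15 against 1.48 CPM in Apoe-/-. The defining border genes were low but also had higher means in phagocytic cells, without passing: Lyve1 was at 11.3 against 0.523 CPM in wild type and 4.26 against 0.439 CPM in Apoe-/-, and Cd163 at 5.80 against 1.44 CPM and 6.82 against 1.52 CPM. These means hid a wide spread, since Lyve1 was at 0, 38.9, 9.43, 0 and 7.99 CPM in wild-type phagocytic libraries 1 to 5. In Apoe-/- phagocytic libraries 1 to 6 it was at 0.275, 10.8, 3.90, 0, 8.11 and 2.51 CPM. Cd209f was at 0 in all 10 wild-type libraries. The part of such cells in the Pf4 result was not tested.

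**Figure D2:**
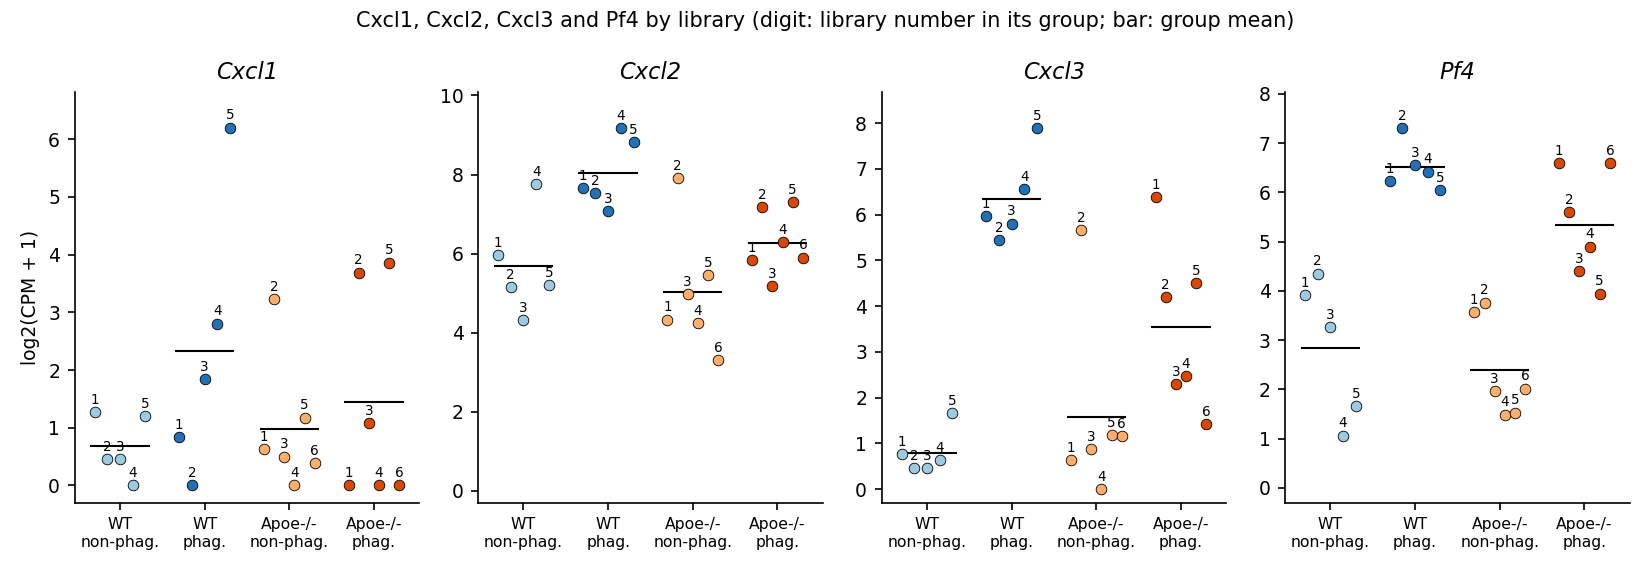
Levels of Cxcl1, Cxcl2, Cxcl3 and Pf4 as log2(CPM + 1) in each library, with its number in the group, and group means as bars. Pf4 separated the sorts in both genotypes, while for Cxcl3 Apoe-/- non-phagocytic library 2 (49.6 CPM) lay within the phagocytic range.

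In Apoe-/- mice, Pf4 rose with uptake and the other 6 tested members did not pass. Again all 7 estimates were positive (median 0.94, against -0.02 over all genes), and 1 of 7 passed, beside 0.403% of tested genes that passed upward. The same limits of the filter and of the choice of members apply, and Cxcl9, below the filter, was at -0.14 on its log2(CPM + 1) scale. Pf4 was at 95.5, 47.5, 20.1, 28.8, 14.4 and 95.3 CPM in Apoe-/- phagocytic libraries 1 to 6 and at 10.9, 12.6, 2.90, 1.80, 1.89 and 3.05 CPM in non-phagocytic libraries. The groups did not overlap, as was the case for 0.524% of tested genes in this direction, although phagocytic library 5 and non-phagocytic library 2 came close. The mean went from 5.52 ± 4.88 to 50.3 ± 36.7 CPM (SD, n = 6 per group), 9.10-fold, with a log2 fold change of 3.29 ± 0.59 (adjusted p = 0.00817, edgeR). With each library left out the adjusted p was 0.00728 to 0.0324.

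Cxcl3 was at 82.0, 17.3, 3.90, 4.55, 21.6 and 1.67 CPM in Apoe-/- phagocytic libraries 1 to 6. In the non-phagocytic libraries it was at 0.544, 49.6, 0.830, 0, 1.26 and 1.22 CPM. Every phagocytic library exceeded 5 of the 6 non-phagocytic libraries, and library 2 alone exceeded 5 of the 6 phagocytic libraries. The log2 fold change was 1.62 ± 0.91 (adjusted p = 0.593, edgeR), and without Apoe-/- non-phagocytic library 2 it was 4.78 ± 0.90 (adjusted p = 0.0196). Without Apoe-/- phagocytic library 1, the highest, it was 0.37.

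Cxcl2 was at 55.9, 143, 35.1, 77.3, 156 and 58.5 CPM in Apoe-/- phagocytic libraries and at 19.1, 239, 30.3, 18.0, 42.8 and 8.85 CPM in non-phagocytic libraries. Library 2 of the non-phagocytic cells was the highest of all 12, and the other 5 reached at most 42.8 CPM. The log2 fold change of 0.60 ± 0.64 (adjusted p = 0.848, edgeR) was 1.88 ± 0.55 without it (adjusted p = 0.198). Cxcl1 was at 0 in 3 of 6 Apoe-/- phagocytic libraries, at 11.9 and 13.5 CPM in libraries 2 and 5, and at 8.40 CPM in non-phagocytic library 2 against 1.26 CPM or less in the other 5.

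Apoe-/- non-phagocytic library 2 thus held the group's highest Cxcl1, Cxcl2 and Cxcl3 together with S100a8, S100a9, Cxcr2 (83.2 CPM, against at most 47.8 CPM in the other 5) and the largest satellite-like share of the data set. Leaving out this library and both wild-type libraries numbered 4, an alternative chosen after seeing the data, gave 3 members that passed in each genotype, Cxcl2, Cxcl3 and Pf4, beside 0.279% of all tested genes that passed upward in wild type and 0.439% in Apoe-/-. In wild type, the log2 fold change was then 2.70 ± 0.48 for Cxcl2 (adjusted p = 0.00905), 6.70 ± 1.03 for Cxcl3 (0.00201) and 3.12 ± 0.60 for Pf4 (0.0193). In Apoe-/- it was 1.87 ± 0.42 for Cxcl2 (adjusted p = 0.0443), 4.77 ± 0.92 for Cxcl3 (0.0147) and 3.63 ± 0.58 for Pf4 (0.00410), all from edgeR. The part of neutrophil RNA in these values was not tested.

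**Figure D3:**
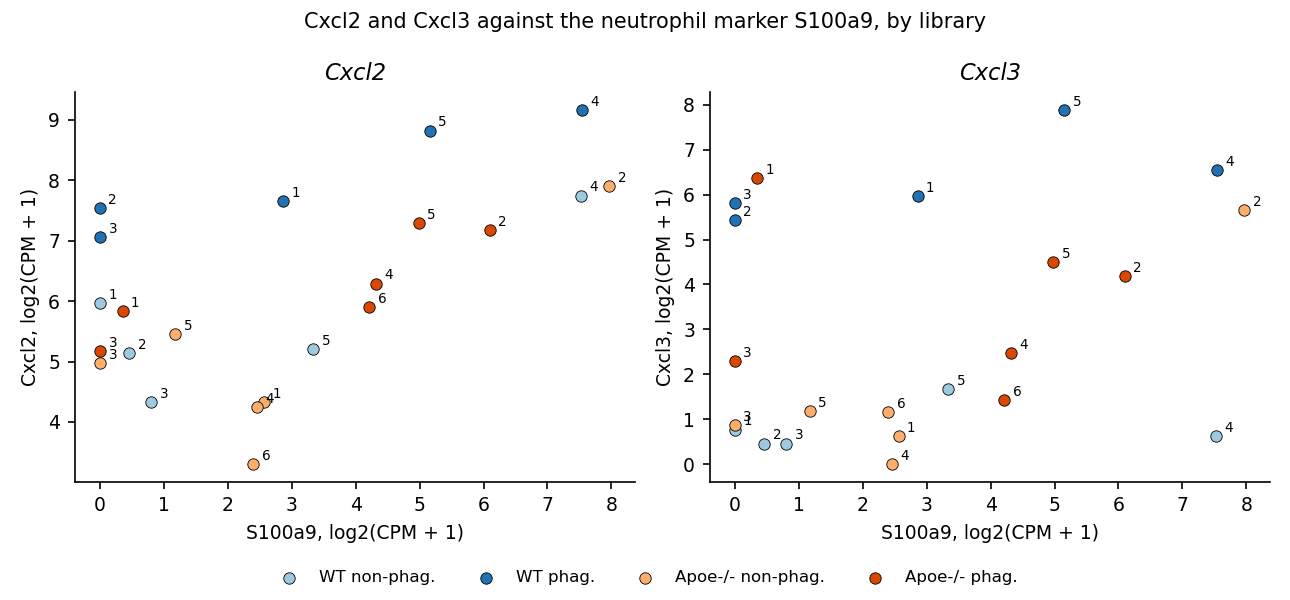
Cxcl2 (left) and Cxcl3 (right) against the neutrophil marker S100a9 in the 22 libraries, all as log2(CPM + 1), with library numbers. The 3 libraries at the right edge (S100a9 184 to 250 CPM) had 214 to 575 CPM of Cxcl2 and 0.542 to 92.8 CPM of Cxcl3.

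Cxcl10, an interferon-inducible member, was at 75.8, 40.9, 101, 120 and 112 CPM in wild-type phagocytic and at 87.4, 58.0, 65.6, 44.5 and 63.3 CPM in wild-type non-phagocytic libraries. These ranges overlapped (log2 fold change 0.50 ± 0.48, adjusted p = 0.906, edgeR). Apoe-/- phagocytic libraries 1 to 6 held 31.1, 52.9, 88.0, 190, 231 and 235 CPM, and non-phagocytic libraries 61.0, 15.96, 41.1, 48.7, 125 and 140 CPM, with a log2 fold change of 0.91 ± 0.44 (adjusted p = 0.492). Within Apoe-/- phagocytic cells the libraries formed 2 sets, numbers 1 to 3 at 88.0 CPM or less and numbers 4 to 6 at 190 CPM or more.

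Each pool held retinas of 1 sex, not named per library. Ddx3y and Eif2s3y, both on the Y chromosome, together came to 39.9 CPM or more in 14 libraries and to 2.54 CPM or less in 8, those numbered 5 in wild type and 4, 5 and 6 in Apoe-/-, in both sorts. With the presence of Y-linked reads as a further term, also chosen after seeing the data, Cxcl10 was lower where they were present by a log2 difference of -1.21 ± 0.30 (adjusted p = 0.0642, edgeR). None of the 7 members passed for this term, beside 0.459% of tested genes. In wild type the 1 pool without Y-linked reads had 112 and 63.3 CPM of Cxcl10, inside the range of the other 4 in each sort (40.9 to 120 and 44.5 to 87.4 CPM). Sex and other properties of these pools cannot be told apart.

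Cxcl9 had few or no reads, with 0 to 3.90 CPM in any library. It was at 0 in 8 of 22 libraries, which allows 0.957 to 2.25 CPM (3 reads), and no difference was detectable at this depth. On the log2(CPM + 1) scale the exact two-sided permutation test gave p = 0.444 for uptake in wild type, 0.755 for uptake in Apoe-/-, 0.199 for Apoe loss in phagocytic and 0.522 in non-phagocytic cells, with adjusted values of 0.696 to 0.755 over these 4.

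Cxcl16 was abundant in every library, at 153 CPM or more. Wild-type phagocytic libraries 1 to 5 had 398, 569, 655, 376 and 536 CPM, and non-phagocytic libraries 312, 267, 347, 320 and 432 CPM. The means of 507 ± 118 and 335 ± 61.0 CPM (SD, n = 5) differed 1.51-fold, with overlap (log2 fold change 0.60 ± 0.24, adjusted p = 0.522, edgeR). In Apoe-/- cells the phagocytic libraries ranged from 330 to 682 CPM (median 562) and the non-phagocytic from 153 to 436 CPM (median 304). That difference, 1.77-fold in the mean and 0.82 ± 0.22 on the log2 scale, missed the threshold (adjusted p = 0.107, edgeR). DESeq2 called it (adjusted p = 0.0182), as did edgeR without Apoe-/- phagocytic library 2 (0.0416) and edgeR with the replicate number as a block (0.00384). Of its reads, 58.6% fell on the coding transcript and 33.8% on a form annotated for nonsense-mediated decay.

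Cxcl14 was at 10.7 to 42.2 CPM (median 15.6) in phagocytic and 12.3 to 26.4 CPM (median 13.4) in non-phagocytic libraries of wild type. In Apoe-/- these ranges were 9.17 to 34.96 CPM (median 15.8) and 5.03 to 14.2 CPM (median 7.65). The sorts overlapped in both genotypes, and the log2 fold change with uptake was 0.52 ± 0.42 in wild type and 0.94 ± 0.40 in Apoe-/- (adjusted p = 0.872 and 0.415, edgeR).

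**Figure D4:**
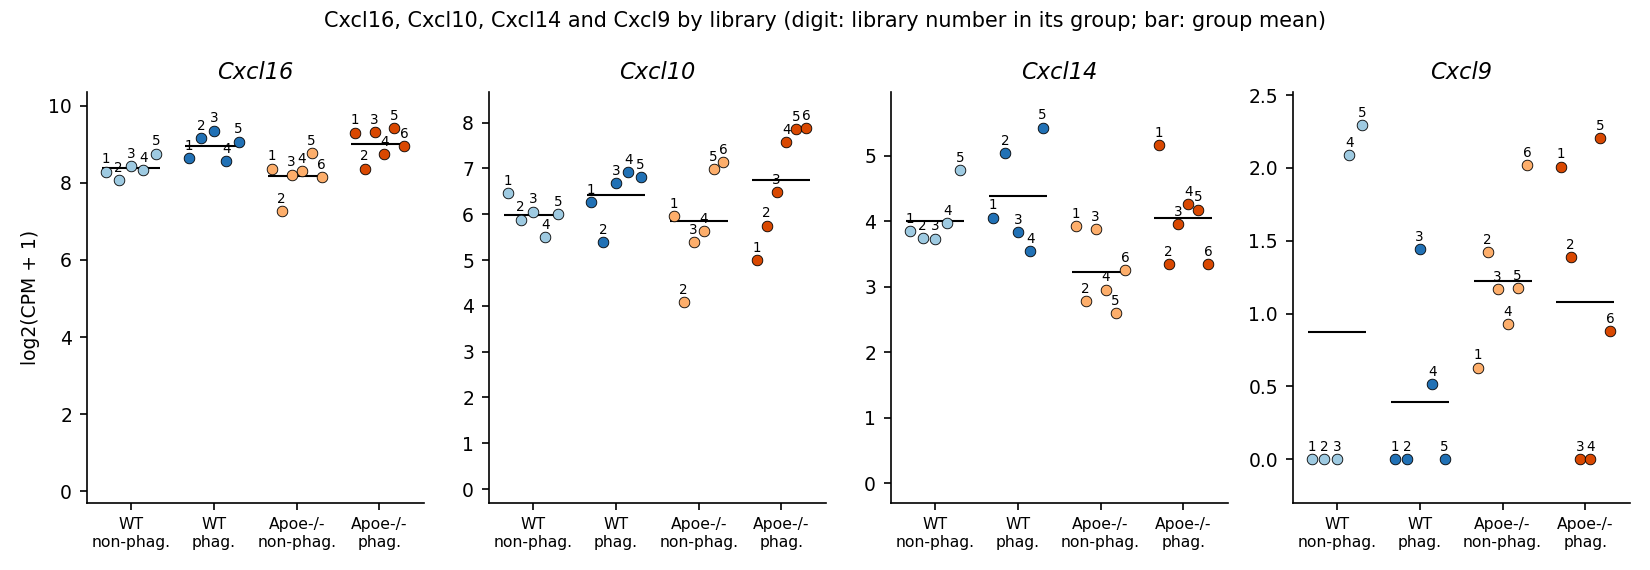
Levels of Cxcl16, Cxcl10, Cxcl14 and Cxcl9 as log2(CPM + 1) in each library, with its number in the group, and group means as bars. The groups overlapped for each gene, and for Cxcl10 Apoe-/- phagocytic libraries 4 to 6 (190 to 235 CPM) lay above libraries 1 to 3.

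The comparison of Apoe-/- with wild-type cells asked how loss of Apoe bore on these genes. Among phagocytic cells no member passed, beside 0.0322% of all tested genes (4 genes, Apoe itself among them). At an unadjusted p under 0.05 stood 2 of 7 members, Cxcl2 and Cxcl3, both lower in Apoe-/-, beside 6.62% of all tested genes. Cxcl2 had a median of 201 CPM in wild-type and 67.9 CPM in Apoe-/- phagocytic cells, with ranges of 133 to 575 and 35.1 to 156 CPM that overlapped at their ends. Its log2 fold change was -1.82 ± 0.66 (adjusted p = 0.633, edgeR). Cxcl3 had medians of 61.7 and 10.9 CPM, and 5 of 6 Apoe-/- libraries lay below all 5 wild-type libraries, library 1 (82.0 CPM) being the exception. Its log2 fold change was -2.08 ± 0.85 (adjusted p = 0.694), and -1.46 to -3.32 with each library left out. Pf4 was at -0.90 ± 0.51 (adjusted p = 0.798), Cxcl1 at -1.91 ± 1.20, Cxcl14 at -0.38 ± 0.40, Cxcl10 at 0.61 ± 0.46 and Cxcl16 at 0.07 ± 0.23. The sign turned for Cxcl1 without wild-type phagocytic library 5 (0.89), and for Cxcl10 with the Y-linked term (-0.02). Without the low-count filter, Cxcl2 and Cxcl3 passed (-1.86, adjusted p = 0.000479, and -2.08, adjusted p = 0.00587), in a fit that called 96 genes in place of 4. Neutrophil markers, whose sum lay at 243 to 1037 CPM in wild-type and 256 to 396 CPM in Apoe-/- phagocytic libraries, had negative estimates in 6 of 6 tested genes. The 1037 CPM was that of wild-type library 4, and the other wild-type phagocytic libraries lay at 243 to 392 CPM. Monocyte markers were negative in 8 of 10 (median -1.68). Of all tested genes, 49.5% had positive estimates. The part of either marker set in the Cxcl2 and Cxcl3 values was not tested.

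Among non-phagocytic cells no member passed either, beside 0.0161% of tested genes (2 genes). At an unadjusted p under 0.05 stood 1 of 7 members, beside 3.8% of all tested genes. This was Cxcl3, with the largest estimate, 3.09 ± 1.35 (adjusted p = 0.999, edgeR), and without Apoe-/- non-phagocytic library 2 it was -0.07. Pf4 was at -0.82 ± 0.63, Cxcl14 at -0.79 ± 0.41, Cxcl2 at -0.33 ± 0.67, Cxcl16 at -0.15 ± 0.23, Cxcl10 at 0.19 ± 0.46 and Cxcl1 at 1.15 ± 1.55, all with adjusted p of 0.999.

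Whether uptake went with different changes in the 2 genotypes was tested as the difference of the 2 log2 fold changes. No gene passed (0 of 12415, that is 0%, with 301 at an unadjusted p under 0.05; DESeq2 called 2 genes, none of them a member). Cxcl3 ranked 8th by p, with a difference of -5.16 ± 1.58 (adjusted p above 0.99, edgeR). Without Apoe-/- non-phagocytic library 2 this was -1.99 ± 1.52, and without the 3 libraries high in neutrophil markers -1.93 ± 1.63. For Cxcl2 the difference was -1.49 ± 0.94, and -0.21 ± 0.76 without that library. Cxcl1 stood at -3.06 ± 1.98. For Pf4 the difference was -0.08 ± 0.90, and for Cxcl10, Cxcl14 and Cxcl16 it was 0.42 ± 0.65, 0.42 ± 0.58 and 0.23 ± 0.32. With an SE of 0.90, a difference in Pf4 of this order between genotypes was not detectable.

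**Figure D5:**
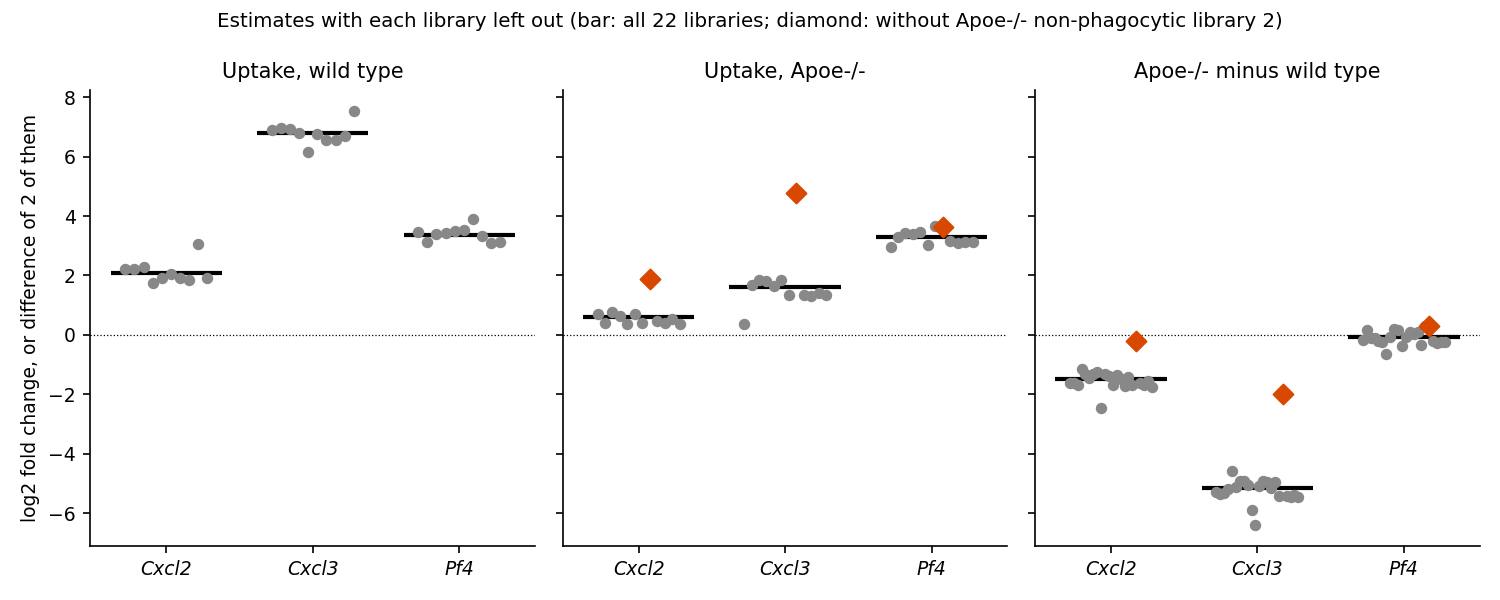
Log2 fold changes of Cxcl2, Cxcl3 and Pf4 with each library of the groups compared left out in turn, for uptake in wild type, uptake in Apoe-/- and their difference. Bars give the fit over 22 libraries, and diamonds the fit without Apoe-/- non-phagocytic library 2, where Cxcl3 moved from 1.62 to 4.78 in Apoe-/- and from -5.16 to -1.99 for the difference.

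None of the members' tested partners passed. Of 8 receptor genes, only Cxcr2 and Cxcr4 passed the low-count filter, and neither passed a test. Cxcr2, the receptor of Cxcl1, Cxcl2 and Cxcl3, was at 11.6 to 185 CPM (median 34.2), with both extremes in wild type, while Cxcr3 and Cxcr6, the receptors of Cxcl10 and Cxcl16, were at most at 4.68 and 15.05 CPM. Among 7 other CXC ligands only Cxcl13, a B cell attractant, was tested (0.428 to 73.0 CPM), without passing. The Cxcl16 sheddases Adam10 and Adam17 were at 66.4 to 264 and 42.8 to 229 CPM, and their log2 fold changes with uptake were 0.01 ± 0.25 and 0.26 ± 0.29 in wild type and 0.03 ± 0.22 and 0.47 ± 0.27 in Apoe-/-.

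Genes of the pathways that drive these chemokines were counted as lists. Of 19 NF-kB subunits and targets, such as Nfkbia, Tnf and Il1b, 0 passed in any of the 5 comparisons. With uptake, 13 of 19 were positive in wild type (median log2 fold change 0.15) and 9 of 19 in Apoe-/- (median -0.00), beside 49.2% and 47.7% of all genes. Of 18 interferon genes, 13 were positive in wild type (median 0.37) and 15 in Apoe-/- (median 0.65). Bst2, an interferon-induced membrane protein that tethers virus particles, rose with uptake in Apoe-/- by 1.53 ± 0.27 on the log2 scale (adjusted p = 0.00624, edgeR), and was the 1 gene of this list that passed. In wild type Bst2 was at 1.01 ± 0.29 (adjusted p = 0.190).

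Among themselves, the Cxcr2 ligands varied together from library to library. As a description over the 22 libraries, which share their groups and depth, the Pearson correlation of log2 CPM was 0.78 between Cxcl2 and Cxcl3, 0.60 between Cxcl1 and Cxcl2 and 0.61 between Cxcl1 and Cxcl3. After the group means were subtracted these were 0.58, 0.55 and 0.58. Cxcl3 and Pf4, neighbours on the chromosome, had 0.73, which became 0.18 without the group means. Cxcl10 and Cxcl3 stood at -0.06, and at -0.52 within groups.

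The genes with the most similar pattern were sought among 9268 genes with a mean of at least 10 CPM. For Cxcl3 they were Slpi, a secreted protease inhibitor (r = 0.89, and 0.73 with group means removed), Pdpn (0.86 and 0.61) and Clec4e, a receptor for mycobacterial glycolipid (0.82 and 0.56). For Cxcl2 they were Wfdc17 (0.87 and 0.82), Clec4e (0.86 and 0.72) and Txn1, thioredoxin (0.83 and 0.66). For Cxcl1 the nearest was Ptgs2, the inducible cyclooxygenase (0.78 and 0.80). For Pf4 they were the chemokine Ccl9 (0.86 and 0.36), Pld3 (0.85 and 0.41) and the chemokine Ccl6 (0.85 and 0.40), all of them lower once the group means were removed. Cxcl10 was nearest to Slfn8 (0.83 and 0.83), Nrp2 (0.81 and 0.80) and the chemokine Ccl7 (0.80 and 0.80), and Cxcl16 to Cyb5r3 (0.88 and 0.77), Adgre1, which encodes the macrophage antigen F4/80 (0.84 and 0.67), and Elovl1 (0.84 and 0.81). Cxcl14 was nearest to Atg7, a gene of autophagy (0.78 and 0.65).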

How the data were processed

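For 116248 transcripts the authors' deposited values are, per the file headers, an estimated count (expected count) of reads and a TPM in all 22 libraries. Their gene-level FPKM, filtered per the file headers at an FPKM of 5, served in an alternative test alone. Salmon 1.4.0, R 4.0.3, DESeq2 1.30.1 and mm10 are named, without roles, per the submitters' processing notes. Annotation and read filters: not given in the sources used here.

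Transcripts were matched to GENCODE M21 (116072 matched, 176 not, holding 0.118% to 0.262% of reads and left out). Estimated counts were summed per gene and rounded to whole numbers. Reads of near-identical genes are uncertain: 7.59% of 31-base words of Cxcl2 were shared with Cxcl3 and 5.46% of those of Cxcl3 with Cxcl2 or other genes, while Cxcl1, Pf4, Cxcl10, Cxcl14 and Cxcl16 shared none in the same sense. Words were not compared with the reverse complement, so the search could not find overlap with Art3 or Zmynd15 on the opposite strand.

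The test was edgeR 4.0.16 under R 4.3.3 (TMM scaling, filterByExpr by group, 1 quasi-likelihood fit of 4 group means, common biological coefficient of variation 0.426). Benjamini-Hochberg adjustment ran over all 12415 genes of a comparison, with a threshold of 0.05. Levels are CPM after TMM scaling, and errors are SD for levels and SE for log2 fold changes. Cxcl9 was tested by exact permutation in Python 3.11.15 on log2(CPM + 1), at most 924 splits. The method was checked on simulated counts. Replicates differed beyond sampling noise (chi-square per degree of freedom 7.01 to 67.3).

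Alternatives were RLE scaling, DESeq2 1.42.0, other filters, a replicate block, limma 3.58.1 on log2(FPKM + 1), and left-out libraries, genes or transcripts. The members and gene lists were chosen with earlier results of these data known. All 8 members are named. A related gene is named where it passed a test, pairs with a member that passed or is the highest of its list. Named outside this rule, with their values known, are Cxcr3, Cxcr6, Adam10, Adam17, the wild-type value of Bst2, the Y-linked genes and single marker genes. Nearest patterns are the highest Pearson correlations of log2 CPM (prior count 2).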

Additional observations from a re-analysis of the deposited data

Results flagged for a closer look

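In 11 of 32 sets of 1 member in 1 group, the highest library stood far from the others by Dixon's criterion. For normal values chance gives about 1 in 20 sets, a rate that linear CPM near 0 need not follow, and all 11 were at the high end. They are given as CPM. Apoe-/- non-phagocytic library 2 stood apart for Cxcl1 (8.40), Cxcl2 (239) and Cxcl3 (49.6). Wild-type non-phagocytic library 4 stood apart for Cxcl2 (214). Wild-type phagocytic library 5 stood apart for Cxcl1 (72.4) and Cxcl3 (236), and wild-type non-phagocytic library 5 for Cxcl3 (2.17, about 5 reads) and Cxcl14 (26.4). Apoe-/- phagocytic library 1 stood apart for Cxcl3 (82.0) and Cxcl14 (34.96). For Cxcl9, wild-type phagocytic library 3 (1.72, about 4 reads) did so.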

How the results depend on the processing

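Of 869 recomputed log2 fold changes of tested members, 818 kept their direction and their side of the threshold. The sign turned in 33, 15 came to pass and 3 no longer passed. Most of the 818 had not passed in the main fit either, so their number does not measure how robust the results that passed are. In wild type, where 2 members rose with uptake, the number was 1 to 3 with each library left out, 1 on coding transcripts (Cxcl3) and 4 with no low-count filter, which added Cxcl1 and Cxcl2. In Apoe-/-, where 1 rose, it was 1 to 2 with each library left out, 2 with DESeq2, 2 without non-phagocytic libraries 2 and 5 and 3 without the 3 libraries high in neutrophil markers. With no filter, 2 members passed for Apoe loss in phagocytic cells and 1, Cxcl3 (-5.10), for the difference in uptake, beside 96 and 17 of 32368 genes. The number of all genes called for uptake moved as well, so member counts of different fits are not on 1 scale. With each library left out it was 13 to 64 in wild type and 18 to 89 in Apoe-/-. On coding transcripts it was 21 of 11116 in wild type. In Apoe-/- it was 16 of 12600 without libraries 2 and 5, and 71 of 12530 without the 3 libraries. DESeq2 called 103 genes in wild type and 168 in Apoe-/- in place of 26 and 58, and no filter 122 and 137. With the replicate number as a block these were 135 and 255 genes, and 3 and 2 members, adding Cxcl2 in wild type (2.38, adjusted p = 0.00249) and Cxcl16 in Apoe-/- (0.84, adjusted p = 0.00384). Equal numbers are not said to share animals: same-numbered libraries correlated at 0.040 to 0.423, not all above 0.1, and 7 of 11 phagocytic libraries correlated best with the non-phagocytic library of their own number. Y-linked reads were present or absent alike in both libraries of every number. The cause of these shifts was not tested.

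Signs turned for values that did not pass. For Apoe loss in phagocytic cells, Cxcl16 (0.07) was at -0.0073 on FPKM, -0.0203 without wild-type pool 4, -0.0184 without the 3 libraries and -0.0206 to 0.18 with each library left out. Cxcl1 ran from -2.24 to 0.89 with each left out, and Cxcl10 was at -0.0220 with the Y-linked term. For Apoe loss in non-phagocytic cells, Cxcl10 was at -0.40 with the block, -0.35 on FPKM, -0.39 with the Y-linked term and -0.11 to 0.40 with each left out. Cxcl2 there was at 0.62 without wild-type pool 4, 0.71 on coding transcripts and -1.60 to 0.62 with each left out. Without Apoe-/- non-phagocytic libraries 2 and 5, Cxcl3 was at -0.22 and Cxcl1 at -0.96, and Cxcl3 was at -0.16 without the 3 libraries and -0.0686 to 3.83 with each left out. For the difference in uptake, Pf4 was at 0.16 without wild-type pool 4, 0.14 without libraries 2 and 5, 0.51 without the 3 libraries, 0.12 on coding transcripts and -0.64 to 0.29 with each left out. Cxcl2 was at 0.0947 without libraries 2 and 5. Cxcl1 had no value where a left-out library took it below the filter. Cxcl1, Cxcl9 and non-phagocytic Cxcl3 rested on few reads.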
